A study of Mus musculus with 4 samples.

Results

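The genes described are 10 genes for secreted plasma proteins known as products of the liver bud of the embryo: Itih2, Ambp, Serpinf2, Afm, Serpina6, Afp, Apoa2, Fgb, Vtn and Ahsg. They are 10 of 18217 genes with a name on the array, and they were chosen from the values of these same 4 arrays, by their difference between Jmjd3-/- and wild-type embryos. That difference is therefore given as a description and carries no test. All 10 passed the filter on dim signals, which 13579 genes passed by being well above background on both arrays of 1 genotype or of each. For Itih2, Afm and Serpina6 it was the wild-type arrays alone that met it.

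Mouse embryos at embryonic day 9.5 (E9.5), bred by crossing Jmjd3 heterozygotes, gave RNA of their posterior part after staging by somite number and genotyping. There were 2 samples labelled Jmjd3-/- (replicates 1 and 9) and 2 labelled wild-type (replicates 3 and 4), each on 1 single-colour Agilent array; the labels name no agent for either genotype. The sources used here do not give the strain or the deleted part of Jmjd3, and no label says that a sample is 1 embryo, so the errors measure the spread between these samples. Values below are normalised log2 signals, that is, the log2 of the processed spot brightness less the 75th percentile of its array, so that 0 is that percentile and 1 unit is a 2-fold step; a difference is Jmjd3-/- minus wild-type. Paired values of a genotype stand in the order of its replicates, 3 then 4 for wild-type and 1 then 9 for Jmjd3-/-.

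The liver bud forms in the embryo when foregut endoderm next to the heart turns to the hepatic fate, and its hepatoblasts push into the mesenchyme of the septum transversum. Hepatoblasts start to make the proteins of the blood plasma early: carriers of lipids, hormones and vitamins, clotting factors, and inhibitors of proteases. Transcription of these genes in hepatoblasts depends on hepatocyte nuclear factors such as HNF1 and HNF4, on forkhead proteins of the FOXA group and on C/EBP proteins. The visceral endoderm of the yolk sac makes many of the same proteins, including Afp. In RNA of a whole tissue, fewer cells of a type and less RNA per cell cannot be told apart.

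The promoters of 4 of the genes are shown. Afp and Afm are neighbours in the albumin cluster of chromosome 5, Itih2 had the largest difference, and Ahsg alone was higher in Jmjd3-/-. Each run is 300 bases, from 250 bases before the gene start to 50 bases after it, on the strand of the gene, from RefSeq's GRCm38.p6 table. The windows are chr5:90490464-90490763 (plus strand) for Afp, chr5:90518699-90518998 (plus) for Afm, chr2:10130634-10130933 (minus) for Itih2 and chr16:22891765-22892064 (plus) for Ahsg. Capitals mark matches, on either strand, to the motifs named below.
Afp: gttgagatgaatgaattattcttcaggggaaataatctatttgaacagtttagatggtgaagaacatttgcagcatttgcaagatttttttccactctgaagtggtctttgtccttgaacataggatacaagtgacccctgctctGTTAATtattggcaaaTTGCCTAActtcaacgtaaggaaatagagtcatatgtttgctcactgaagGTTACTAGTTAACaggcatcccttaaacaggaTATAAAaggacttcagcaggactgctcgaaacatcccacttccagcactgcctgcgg
Afm: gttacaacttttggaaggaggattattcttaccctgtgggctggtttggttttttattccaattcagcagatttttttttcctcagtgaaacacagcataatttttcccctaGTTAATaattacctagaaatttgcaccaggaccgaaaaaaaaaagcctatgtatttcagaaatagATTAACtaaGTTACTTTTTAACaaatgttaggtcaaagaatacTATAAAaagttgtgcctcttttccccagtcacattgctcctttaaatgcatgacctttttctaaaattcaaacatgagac
Itih2: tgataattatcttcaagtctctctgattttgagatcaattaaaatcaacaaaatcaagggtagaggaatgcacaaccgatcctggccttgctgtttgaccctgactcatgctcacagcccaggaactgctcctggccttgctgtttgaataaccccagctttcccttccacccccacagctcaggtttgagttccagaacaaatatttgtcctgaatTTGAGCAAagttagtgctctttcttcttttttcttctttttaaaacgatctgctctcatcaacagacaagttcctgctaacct
Ahsg: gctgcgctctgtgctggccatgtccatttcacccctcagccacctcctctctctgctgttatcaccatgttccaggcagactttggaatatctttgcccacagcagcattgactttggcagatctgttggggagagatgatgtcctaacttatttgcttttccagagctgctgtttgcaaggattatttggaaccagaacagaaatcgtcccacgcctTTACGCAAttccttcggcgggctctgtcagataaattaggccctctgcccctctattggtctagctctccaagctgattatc

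The motifs searched were a HNF1 site with both arms (GTTA, any 5 bases, then TAAC), the single HNF1 arm GTTAAT, the C/EBP form TTGCNNAA, the forkhead forms TGTTTAC and TATTTAC, and the TATA box TATAAA, each on both strands and with overlaps between motifs allowed. The table held a window for 9 of the 10 genes, and Serpina6 had none. A HNF1 site with both arms was in the windows of Afp and Afm, and in 0.332% of all 32851 promoter windows. In Afp it lay 39 to 27 bases before the gene start, and in Afm 64 to 52 bases before it. The single arm was in the windows of Afp, Afm, Fgb and Vtn, against 7.10% of all windows, and the C/EBP form in those of Afp, Apoa2, Fgb, Itih2 and Ahsg, against 10.8%. A forkhead form was in the windows of Apoa2, Fgb and Serpinf2 (6.54% of all windows) and a TATA box in those of Afm, Afp, Apoa2 and Vtn (13.6%). Ahsg, the gene with the opposite direction, held the C/EBP form as Itih2, Fgb, Apoa2 and Afp did. Apoa2 has 2 start sites in the table, so 10 windows stood for the 9 genes. Base composition differs between windows, and the G and C share of these 10 ran from 33.0% to 57.3% with a median of 52.7% over all windows.

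Each array had 24632 to 25949 of its 41174 probes well above background and 0 saturated spots. Precision is limited by the number of arrays. Kdm6b, the current name of Jmjd3, had signals of 0.35 and 0.11 in Jmjd3-/- and of 2.15 and 2.23 in wild-type, a difference of −1.96 (SE 0.12). The sources used here do not place its probe inside or outside the deletion, and from outside it the value would not check the labels. Over all genes limma called 5 of 13579 at an adjusted p under 0.05, or 0.0368% (0.0147% lower and 0.0221% higher), and none of these is among the 10. At an unadjusted p under 0.05 it found 1505 genes, 806 lower and 699 higher. Without Jmjd3-/- replicate 9 it called 167, and without any 1 of the other 3 arrays 0. Well above background on all 4 arrays were 17 of 17 tested tail bud genes and 13107 of all 13579 genes, so this count does not check the labelled tissue.

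Of the 10 genes, 9 were lower in Jmjd3-/- and 1, Ahsg, was higher. In 9 of 9 and 1 of 1 the values of the genotypes did not overlap. Among all genes tested, 23.7% were lower and 23% were higher without overlap, and since the genes were chosen on this contrast nothing is read from the comparison. Being over 2-fold lower, as 9 of the 10 were, held for 2.11% of all genes. The median difference of the 10 was −2.05 (−1.25 with normexp background correction and an offset of 50, which by its construction draws dim signals together), or −1.95 with Afm and Serpina6 set at their bounds, beside −0.01 for all genes tested. The 9 lower genes ranged from −1.23 for Vtn to −4.12 for Itih2, with a median of 4.24-fold.

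**Figure D1:**
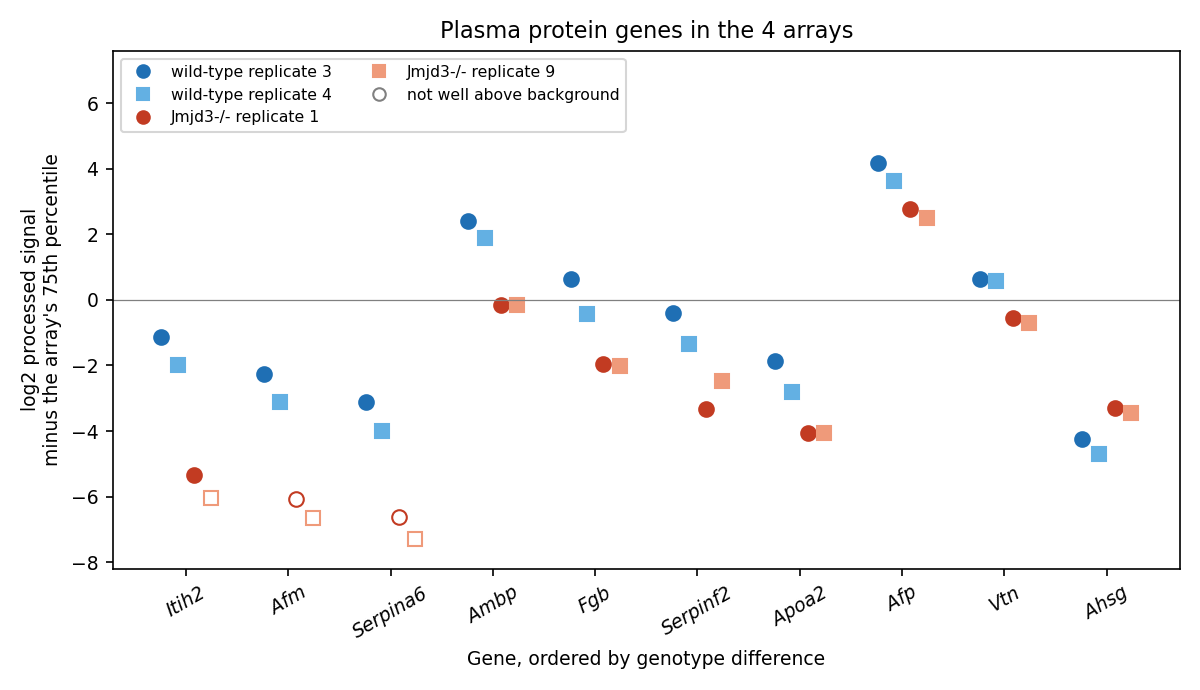
Normalised log2 signal (y axis, log2 of the processed signal less the array's 75th percentile) of the 10 genes (x axis) on each of the 4 arrays, with open symbols where the probe was not well above background. For 9 genes both wild-type points lie above both Jmjd3-/- points, for Ahsg below them, and in all 10 the wild-type replicate 3 point lies above that of replicate 4.

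Inter-alpha-trypsin inhibitor is built from heavy chains and a small protease inhibitor, bikunin. Itih2 encodes heavy chain 2, and Ambp encodes a precursor that is cut into bikunin and the lipocalin alpha-1-microglobulin. Itih2 (NM_010582, chromosome 2) had signals of −1.13 and −1.99 in wild-type and of −5.33 and −6.03 in Jmjd3-/-. In intensity these were 273 and 158 against 15.0 and 8.83. Both wild-type arrays were far above both Jmjd3-/- arrays, and Jmjd3-/- replicate 9 was not well above background. The fitted difference of −4.12 (SE 0.41, n = 2 per genotype) rests in part on that dim signal. With the dim array set at its floor, the signal of the dimmest probe that was well above background there, Itih2 was 13.5-fold lower. With normexp the difference was −1.89.

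Ambp (NM_007443, chromosome 4) was bright on all 4 arrays, with 2.41 and 1.90 in wild-type and −0.15 and −0.16 in Jmjd3-/-. The Jmjd3-/- arrays were almost equal, and the lower wild-type array was 4.13-fold above the higher of them. The difference was −2.31 (SE 0.20), which leaves 20.2% of the wild-type level.

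Serpinf2 encodes alpha-2-antiplasmin, the main inhibitor of plasmin, and lies on chromosome 11, as Vtn and the targeted gene Kdm6b do. Its signals (NM_008878) were −0.41 and −1.34 in wild-type and −3.32 and −2.46 in Jmjd3-/-. The Jmjd3-/- arrays stood 0.86 apart, with replicate 9 the higher, and the wild-type arrays 0.93 apart. The difference of −2.02 had the largest standard error of the set, 0.47.

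The carrier proteins were Afm, Serpina6, Afp and Apoa2. Afm encodes afamin, a vitamin E binding protein of the albumin family. Its signals (NM_145146, chromosome 5) were −2.27 and −3.11 in wild-type, intensities of 124 and 72.5, and it was not well above background on either Jmjd3-/- array, with intensities of 8.87 and 5.70. Afm was at least 6.69-fold lower in Jmjd3-/-, a bound that sets the wild-type mean against the floors of the Jmjd3-/- arrays. The measured means were −2.69 in wild-type and −6.38 in Jmjd3-/-, and with normexp the difference was −1.25.

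Serpina6 encodes corticosteroid-binding globulin, which carries glucocorticoids in the blood. It was dim also in wild-type (NM_007618, chromosome 12), with intensities of 69.7 and 38.9 in wild-type, normalised −3.10 and −4.01. On the Jmjd3-/- arrays it was not well above background, at 6.11 and 3.69. It was at least 3.68-fold lower in Jmjd3-/- by the same kind of bound, from measured means of −3.56 in wild-type and −6.96 in Jmjd3-/-. With normexp the difference was −0.66.

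Afp encodes alpha-fetoprotein, the albumin-like carrier of fetal plasma and a product of both hepatoblasts and yolk sac. It was the one gene of the set with replicate spots, 10 on each array. Its mean signals (NM_007423, chromosome 5) were 4.17 and 3.64 in wild-type and 2.78 and 2.51 in Jmjd3-/-. The SD over the 10 spots was 0.05 to 0.07 on every array, so the step of 0.53 between the wild-type arrays was several times the spot error. The spots of an array share 1 labelled RNA and measure technical error only. The highest Jmjd3-/- spot, 4402 in intensity, was below the lowest wild-type spot, 7306. The difference between genotypes was −1.26 (SE 0.23), which leaves 41.8% of the wild-type level.

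Apoa2, for apolipoprotein A-II of high-density lipoprotein (NM_013474, chromosome 1), had −1.87 and −2.82 in wild-type. In Jmjd3-/- replicates 1 and 9 it had −4.06 and −4.05, which were almost the same. Its difference was −1.71 (SE 0.35), and −0.82 with normexp. Intensities of 36.2 and 34.9 in Jmjd3-/- were dim but well above background.

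Among the proteins of clotting and adhesion, Fgb encodes the beta chain of fibrinogen. It had 0.64 and −0.44 in wild-type and −1.96 and −2.01 in Jmjd3-/- (NM_181849, chromosome 3). The wild-type arrays differed by 1.08, the widest gap within a genotype in the set, while the Jmjd3-/- arrays differed by 0.05. The difference between genotypes was −2.08 (SE 0.40).

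Vtn encodes vitronectin, an adhesive protein of plasma and matrix. Its signals (NM_011707, chromosome 11) were 0.65 and 0.56 in wild-type and −0.54 and −0.71 in Jmjd3-/-. It had the smallest difference of the 9 lower genes, −1.23, and the smallest standard error, 0.10. The wild-type arrays lay only 0.09 apart, the narrowest such gap in the set.

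Ahsg encodes fetuin-A, which keeps calcium phosphate from precipitating in plasma. It was the one gene of the set with more signal in Jmjd3-/-, −3.30 and −3.44 against −4.25 and −4.70 in wild-type (NM_013465, chromosome 16). All 4 values were well above background but dim, with intensities of 61.1 and 53.1 against 31.5 and 24.1. The difference was 1.10 (SE 0.19), or 2.14-fold. With normexp the difference of Ahsg was 0.34.

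**Figure D2:**
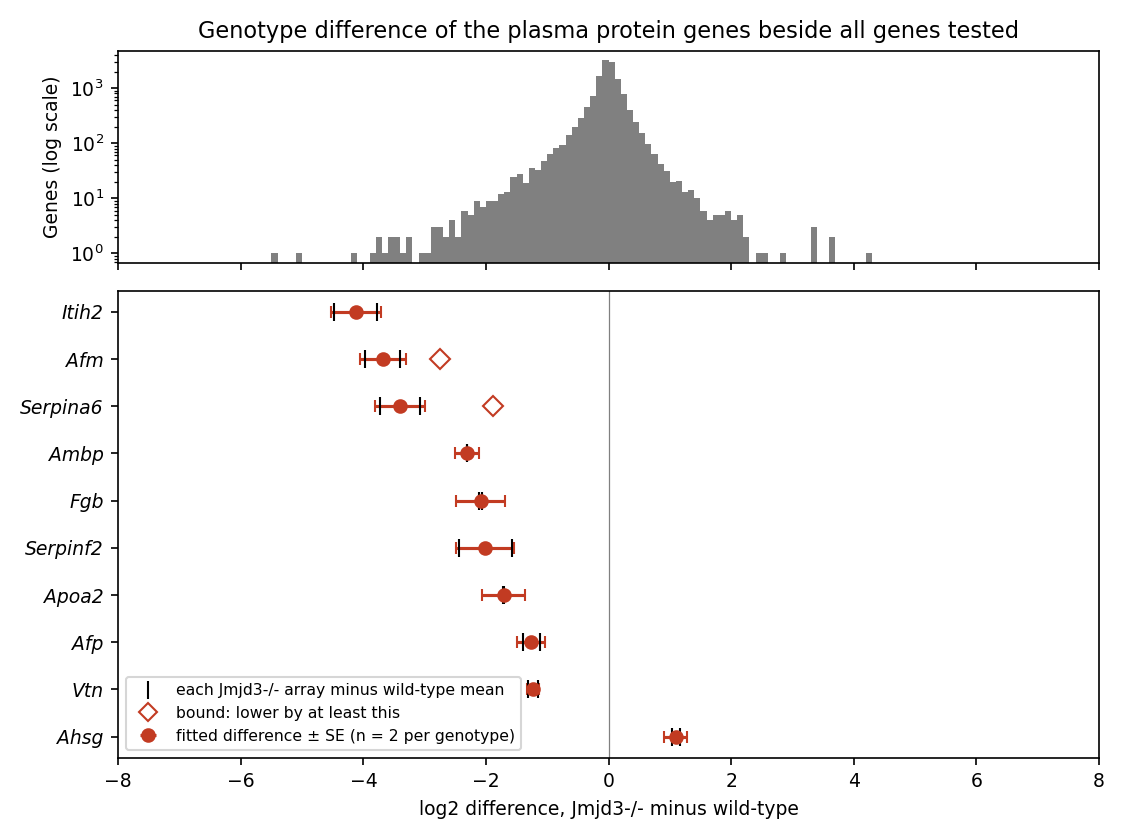
Upper panel: histogram of the log2 difference, Jmjd3-/- minus wild-type, of all 13579 genes tested (y axis on a log scale). Lower panel: the fitted difference of each of the 10 genes with its SE, each Jmjd3-/- array against the wild-type mean (black ticks) and the bounds of Afm and Serpina6 (diamonds). Itih2 lies at −4.12, 6 further genes between −1.71 and −3.68, Afp and Vtn at −1.26 and −1.23, and Ahsg at 1.10.

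The wild-type arrays were not alike in these genes. Replicate 3 was above replicate 4 in 10 of 10, Ahsg included, with a median of 0.85. In 8 of the 10 the gap was over 0.5, with Vtn at 0.09 and Ahsg at 0.45 below that. Over all genes tested, replicate 3 was higher by over 0.5 in 2.81%, and the median size of the gap was 0.08. The Jmjd3-/- arrays did not all differ in the same direction. Replicate 1 was higher in 8 genes, and replicate 1 minus 9 was −0.86 in Serpinf2 and −0.01 in Apoa2. The median of replicate 1 minus 9 was 0.16, beside −0.05 over all genes. The median size of that gap was 0.22, beside 0.16 over all genes. Itih2, Afm and Serpina6 had Jmjd3-/- gaps of 0.58 to 0.70, and of these 6 Jmjd3-/- signals that of Itih2 in replicate 1 alone was well above background. What moved with the wild-type gap was looked at in the same lists as below: replicate 3 was higher by a median of 0.33 in heart muscle genes and 0.15 in other plasma protein genes, and lower by 0.50 in erythroid genes, and the part of these in the result was not tested.

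**Figure D3:**
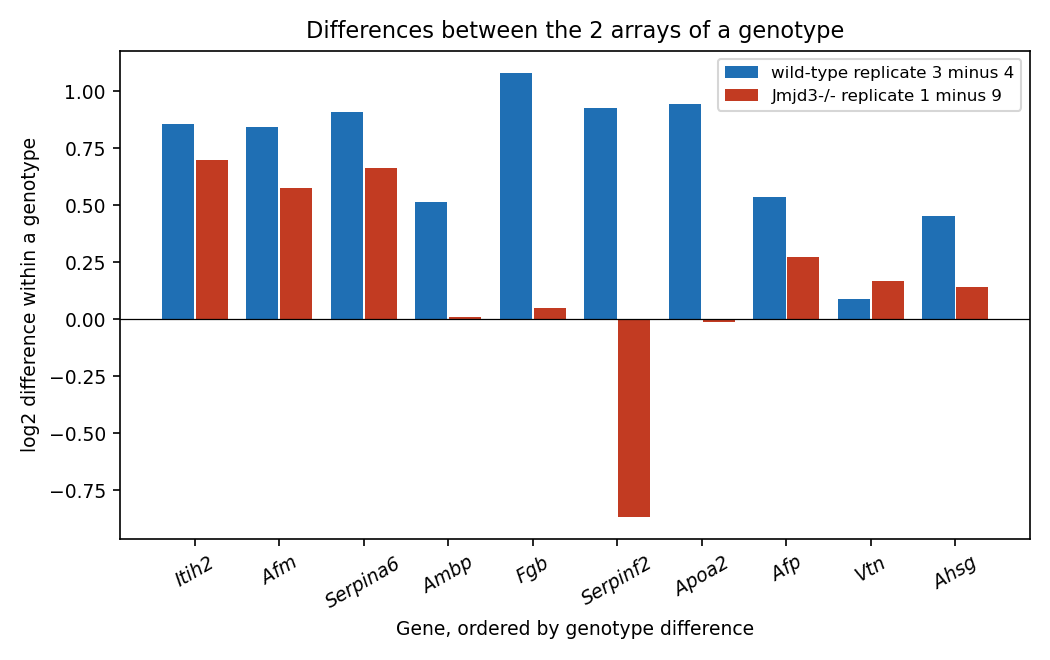
Log2 difference between the 2 arrays of each genotype (y axis) for the 10 genes (x axis), wild-type replicate 3 minus 4 in blue and Jmjd3-/- replicate 1 minus 9 in red. Blue bars are above 0 for all 10 genes, from 0.09 for Vtn to 1.08 for Fgb, and red bars lie on both sides of 0.

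Afp and Afm, described above, adjoin each other among the tested genes of chromosome 5. Fgg, for the gamma chain of fibrinogen, lies beside Fgb and had −2.87 and −3.37 in Jmjd3-/- against −1.25 and −2.01 in wild-type. Its difference was −1.49 (SE 0.34; limma adjusted p = 0.339). Serpina1d, an alpha-1-antitrypsin gene next to Serpina6, differed by −1.45 (SE 0.39; limma adjusted p = 0.378). It is 1 of several near-identical copies, which its probe may not tell apart. Serpinf1, for pigment epithelium-derived factor, lies next to Serpinf2 and differed by −0.84 (SE 0.20; limma adjusted p = 0.355). None of these 3 passed the threshold. On the far side of Fgb, Serpina6 and Serpinf2, the next tested genes Plrg1, Ppp4r4 and Wdr81 differed by 0.04, −0.04 and 0.30. The tested genes on either side of Itih2, Ambp and Vtn, which are Kin, Itih5, Zfp618, Kif12, Sarm1 and Sebox, differed by −0.31 to 0.13. Beside Apoa2 lay Tomm40l at −0.14 and Fcer1g at −0.33, and Rassf6, after Afm, had −0.34. Ahsg lay between Tbccd1 at 0.05 and Hrg, a plasma protein gene, at 0.00 (SE 0.22).

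Albumin, the standard marker of the hepatic fate, lies next to Afp, and its single spot could not be read in 1 array. Alb had −2.31 and −3.14 in wild-type and −7.31 in Jmjd3-/- replicate 9, where it was not well above background. In Jmjd3-/- replicate 1 the same spot had 4.73, an intensity of 15991 against 121 and 71.2 in wild-type, and the scanner software marked it there as an outlier. The fitted difference of 1.43 had an SE of 4.38 and says nothing of a direction. Of the 2 Jmjd3-/- arrays, replicate 9 alone gives a usable value for Alb, and against its background limit the wild-type mean was at least 5.92-fold higher; with 1 array this has no replicate check. The 10 genes of the set had 0 spots with such a mark.

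A list of 70 other plasma protein genes of the liver, chosen by name with earlier results of these data known, had values on both sides of 0. Of these 65 were on the array and 40 were tested. Limma called 0 of the 40 at an adjusted p under 0.05, and at an unadjusted p under 0.05 it found 8 lower and 2 higher. Differences were negative in 24 and positive in 16, beside 7216 and 6363 of all 13579 genes tested. Without overlap of the genotypes 17 were lower and 7 were higher, beside 23.7% and 23% of all genes. The median was −0.14, and −0.27 without wild-type replicate 4, −0.22 with probes averaged within a gene, −0.07 with normexp, −0.05 with the filter on all 4 arrays and −0.01 with no filter on dim probes. Serpind1, for the thrombin inhibitor heparin cofactor II, was at least 5.03-fold lower (limma adjusted p = 0.326 for the fitted difference), with −2.43 and −3.42 in wild-type and no signal well above background in Jmjd3-/-. The clotting factor gene F10 differed by −1.02 (SE 0.21; limma adjusted p = 0.332) and the haem carrier gene Hpx by −0.88 (SE 0.22; limma adjusted p = 0.358). With normexp the fitted difference of Hpx was −0.19, that of Serpind1 −0.84 and that of Fgg −0.95. Ttr, for transthyretin, was at least 1.52-fold lower (limma adjusted p = 0.418 for the fitted difference). Itih4, a further heavy chain gene, differed by 0.36 (SE 0.09; limma adjusted p = 0.360), so its value and that of Itih2 had opposite signs.

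Of 18 transcription factors of the hepatic endoderm 14 were tested. Well above background on all 4 arrays were 12 of these, beside 13107 of all 13579 genes, so that count does not check the label of liver bud. Limma called 0; at an unadjusted p under 0.05 there were 5 lower and 1 higher, and the median difference was −0.27. Onecut2 differed by −0.87 (SE 0.07; limma adjusted p = 0.152), Onecut1 by −0.97 (SE 0.28; limma adjusted p = 0.390) and Cebpa, which encodes C/EBP alpha, by −1.15 (SE 0.28; limma adjusted p = 0.355). With normexp Cebpa differed by −0.38, Onecut1 by −0.58 and Gata4 by −0.19. Hhex, an early regulator of the liver bud, differed by −0.42 (SE 0.15; limma adjusted p = 0.451), and Gata4 and Gata6, of both endoderm and mesoderm, by −0.56 (limma adjusted p = 0.411) and −0.53 (limma adjusted p = 0.365). Hnf4a, a defining factor of hepatocytes that is named here after its values were seen, was dim, with −5.40 and −5.14 in wild-type and −4.81 and −5.89 in Jmjd3-/-, so the genotypes overlapped. Each of these factors is also made in other cells of the embryo, so their presence does not place the plasma protein signal in the liver bud. The median of the list turned to 0.03 without Jmjd3-/- replicate 9 and was −0.55 without replicate 1.

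Other genes of hepatoblasts had a median of −0.24 over 18 tested, which was −0.10 without wild-type replicate 4, −0.11 without Jmjd3-/- replicate 1, −0.15 with normexp and −0.09 with no filter on dim probes. Limma called 0 of them, and 3 were lower and 1 was higher at an unadjusted p under 0.05. Asgr1, for a receptor that clears glycoproteins, differed by −0.64 (SE 0.18; limma adjusted p = 0.385) and Mttp, which loads lipid onto apolipoprotein B, by −0.33 (SE 0.11; limma adjusted p = 0.425). The epithelial cadherin gene Cdh1 differed by 0.32 (SE 0.08; limma adjusted p = 0.366).

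Because yolk sac endoderm makes Afp, Apoa2 and other plasma proteins, its uptake genes were set beside them. Differences were positive in 12 of 16 tested genes, beside 6363 of all 13579, with a median of 0.33. Among the 4 negative ones were Soat2 at −0.89 and Slc39a8 at −0.35, named after their values were seen. Limma called 0; at an unadjusted p under 0.05, 1 was lower and 5 were higher, and the median was 0.21 without wild-type replicate 4. Lrp2 and Cubn, for the receptors megalin and cubilin, differed by 1.13 (SE 0.24; limma adjusted p = 0.335) and 0.56 (SE 0.12; limma adjusted p = 0.336), and the calcium-binding gene S100g by 2.24 (SE 0.34; limma adjusted p = 0.290; 0.88 with normexp). The summed level of the list, the log2 of the sum of its signals, was 3.80 and 3.63 in Jmjd3-/- and 3.38 and 3.31 in wild-type. Of the 16, 15 were well above background on all 4 arrays. Lrp2 and Cubn are made in other epithelia as well, and the part of yolk sac tissue in the result was not tested.

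Genes of tissues next to the liver bud were described in the same way. Among all 13579 genes tested, 7216 had negative and 6363 had positive differences, and 287 were over 2-fold lower. At an unadjusted p under 0.05, limma found 806 of all genes lower and 699 higher. Of 13 septum transversum genes 12 had negative differences, with a median of −0.47, a summed level of 3.57 and 3.97 in Jmjd3-/- against 4.34 and 4.30 in wild-type, and all 13 well above background on all arrays. Lhx2, needed in the mesenchyme of the liver, differed by −2.57 (SE 0.74; limma adjusted p = 0.391; −1.56 without Jmjd3-/- replicate 1), Alcam by −1.03 (SE 0.18; limma adjusted p = 0.326; −0.59 with normexp), Tbx18 by −0.98 (SE 0.12; limma adjusted p = 0.219) and Gata5 by −0.59 (SE 0.11; limma adjusted p = 0.329). Limma called 0 of the 13 and found 7 lower and 0 higher at an unadjusted p under 0.05. Aldh1a2 was the brightest of the 13 on every array. Genes of this list, Lhx2 and Aldh1a2 among them, are made in other tissues of the embryo as well. Heart muscle genes were negative in 10 of 16, and 5 of the 16 were over 2-fold lower. Limma called 0, and at an unadjusted p under 0.05 it found 4 lower and 0 higher. These 4 were Nkx2-5, an early cardiac transcription factor, at −1.86 (limma adjusted p = 0.299; −0.57 with normexp), the myosin light chain genes Myl4 at −1.89 (limma adjusted p = 0.371) and Myl7 at −1.62 (limma adjusted p = 0.358), and the troponin gene Tnnt2 at −1.41 (limma adjusted p = 0.347). The median was −0.05, but −0.42 without wild-type replicate 4 and −0.43 with probes averaged within a gene, and it lay between −0.11 and −0.18 without any 1 of the other 3 arrays. Their summed level was 2.45 and 2.89 in Jmjd3-/- against 3.86 and 3.25 in wild-type. The list of forelimb and anterior lateral plate genes also held the hindlimb genes Pitx1 and Tbx4. It had a median of −0.39 over 8, with 7 negative and 1 positive. Tbx5 differed by −1.05 (SE 0.16, limma adjusted p = 0.280), Tbx4 by −0.03 and Pitx1, the positive one, by 0.23. Summed levels of the list, 5.49 and 5.59 in Jmjd3-/- against 5.56 and 5.61 in wild-type, overlapped. Pitx1 and Meis2 were the brightest of the 8 and made up most of these sums. Its median was −0.21 without Jmjd3-/- replicate 1. Erythroid genes had a median of −0.42 over 13 (summed level 8.51 and 9.01 against 9.13 and 9.48), which was −0.19 without wild-type replicate 4, −0.20 without Jmjd3-/- replicate 1, and −0.68 and −0.67 with Jmjd3-/- replicate 9 or wild-type replicate 3 left out. Tail bud genes, from the other end of the tissue, had a median of 1.09 over 17, which was 0.84 with normexp. It was 0.74 without Jmjd3-/- replicate 1 and 1.44 without Jmjd3-/- replicate 9. Limma called 0 of these genes and found 0 lower and 13 higher at an unadjusted p under 0.05. The sources used here do not say how far up the trunk each embryo was cut, and the part of the tissue taken, or of any of these cell types, in the lower plasma protein signals was not tested.

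Gut endoderm as a whole had a median of −0.02 (0.06 without Jmjd3-/- replicate 1) over 14 genes. Of these 9 were negative and 5 positive, beside 7216 and 6363 of all 13579 genes tested. Pyy, a gut hormone gene, and Cdx2, a regulator of hindgut, differed by −1.09 (SE 0.16; limma adjusted p = 0.262) and 1.45 (SE 0.23; limma adjusted p = 0.296). Limma called 0 of these and found 2 lower and 3 higher at an unadjusted p under 0.05. The list of early pancreas genes, which come from endoderm beside the liver bud, had a median of −0.48 over 7 tested. That median was −0.25 without Jmjd3-/- replicate 1, −0.90 without Jmjd3-/- replicate 9, −0.28 with normexp and −0.82 with no filter on dim probes. At an unadjusted p under 0.05 limma found 3 lower and 1 higher, and it called 1 of the 7, the glucagon gene Gcg. It was at least 12.2-fold lower (limma adjusted p = 0.0228 for the fitted difference), with −2.02 and −1.64 in wild-type and no signal well above background in Jmjd3-/-. The call was lost with normexp (adjusted p = 0.0781), quantile normalization (0.0669), no filter on dim probes (0.0868) and without Jmjd3-/- replicate 1 (0.118), wild-type replicate 3 (0.260) or wild-type replicate 4 (0.233), all by limma.

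**Figure D4:**
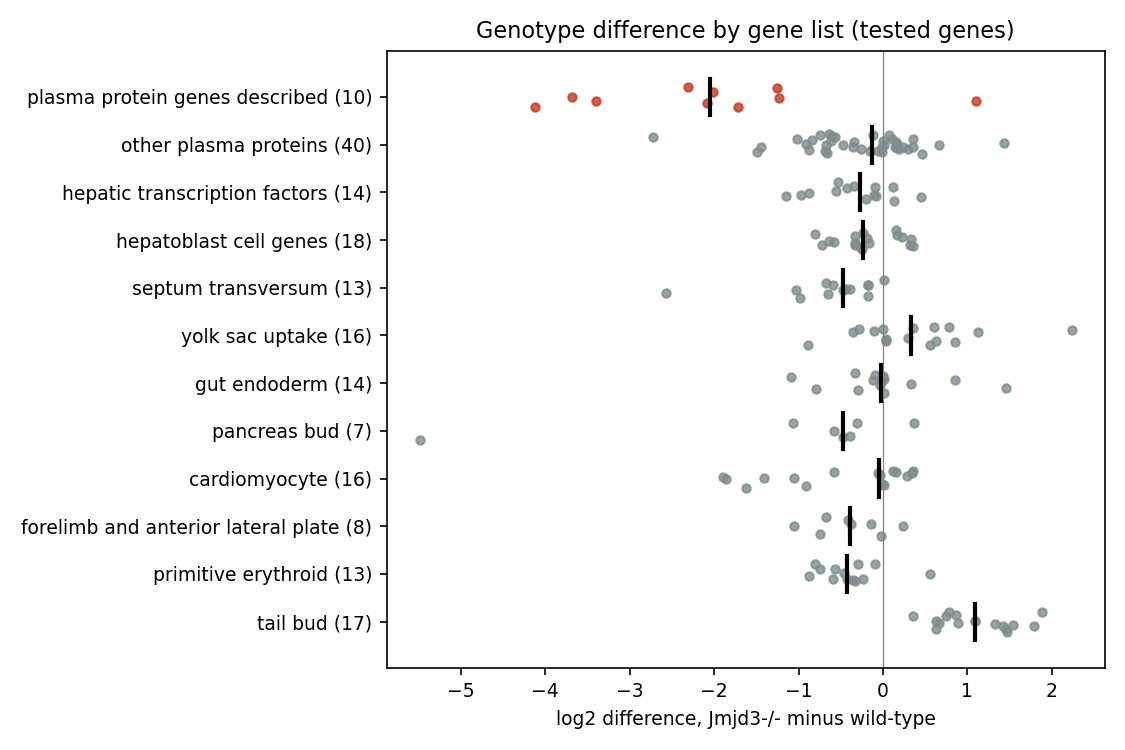
Log2 difference, Jmjd3-/- minus wild-type (x axis), of every tested gene in each list (rows, with the number of genes in brackets), with a black bar at the list's median. The 10 plasma protein genes described have a median of −2.05, the other plasma proteins −0.14, the yolk sac uptake genes 0.33 and the tail bud genes 1.09.

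The genes whose pattern over the 4 arrays was nearest to the mean pattern of the 10 were Gdf2, Clec4f, Herc6, Vax2 and Tecrl. The measure was the root mean square distance between centred log2 values over the 4 arrays, which was 0.08, 0.08, 0.18, 0.21 and 0.24. All 5 were well above background on both wild-type arrays and on neither Jmjd3-/- array, so with the floors of those arrays they were at least 2.90-fold (Gdf2), 1.88-fold (Clec4f), 4.26-fold (Herc6), 1.15-fold (Vax2) and 2.62-fold (Tecrl) lower. Gdf2 encodes the circulating ligand BMP9, and Clec4f a lectin of the resident macrophages of the liver. In wild-type Gdf2 had −3.55 and −4.25, Clec4f −4.20 and −4.85, and Herc6 −2.97 and −3.72. Vax2 had −5.16 and −5.30 and Tecrl −3.43 and −4.67, so all 5 shared the higher value in replicate 3. Their fitted differences, from −2.02 for Gdf2 to −2.39 for Herc6, rest on dim Jmjd3-/- signals. With normexp they were −0.42 (Gdf2), −0.40 (Clec4f), −0.75 (Herc6), −0.22 (Vax2) and −0.46 (Tecrl). With 4 arrays of 2 genotypes, likeness rests mostly on the genotype difference that chose the set. The distance also counts the gap between the wild-type arrays, so genes picked by it tend to share that gap, and nothing is read from it.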

How the data were processed

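The deposited scanner files hold spot intensity in arbitrary units, made per the file headers by Agilent Feature Extraction 10.7.3.1, with background and spatial trend corrected. The deposited table of log2 values has no stated scale; it matched log2 processed intensity less each array's 75th percentile and less the wild-type mean for 99.9% of probes within 0.01 on each array. The medians of its columns were −0.02 (Jmjd3-/- replicate 1), 0.05 (Jmjd3-/- replicate 9), 0.02 (wild-type replicate 3) and −0.02 (wild-type replicate 4), and scale, centring and direction were inferred from the values.

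Control spots (1639 of 45018) were left out and spots averaged to 41174 probes, of which 26690 were named by accession through RefSeq's GRCm38.p6 table. Each of the 10 genes had 1 probe; elsewhere the brightest probe stood for a gene. The comparison of genotypes used limma 3.58.1 under R 4.3.3 (lmFit, eBayes, no covariate, Benjamini-Hochberg over 13579 genes), and the code was tested on simulated data. SE is limma's moderated standard error; its median over genes was 0.11. A bound sets the mean of the bright genotype against, on each dim array, the dimmest probe still well above background there, or the gene's own signal if that is higher. All arrays shared 1 slide and 1 scan; those of Jmjd3-/- held the outer positions, so position and genotype cannot be told apart. The files lacked the mean signal that was planned for normexp, so the median signal was used.

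The genes and lists were chosen with earlier results of these data known. Genes outside the set are named by smallest p in each list, by chromosome order and by likeness of pattern. One gene that this rule names is not reported here.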

Additional observations from a re-analysis of the deposited data

How the results depend on the processing

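All 10 genes kept their direction in every alternative run. The runs were 3 other scalings or background corrections, the authors' deposited table and 2 other filters. Further runs averaged probes within a gene, left out outlier spots, or left out each array in turn. Only the scalings and background correction could have changed a sign. Since the genotypes did not overlap in any of the 10, leaving out an array could not. The remaining runs used the same or nearly the same values of these genes. With a filter on all 4 arrays, Itih2, Afm and Serpina6 could not be measured and 7 genes were left. Leaving out an array cannot move a difference by more than the spread between replicates, so those runs could not fail. Of 117 values, 111 moved by less than that spread. The other 6 came from normexp with an offset of 50, which draws dim signals together: Itih2 −1.89, Afm −1.25, Serpina6 −0.66, Vtn −1.09, Apoa2 −0.82 and Ahsg 0.34, with a median of −1.25 over the 10 genes. With arrays left out the median ranged from −1.55 without wild-type replicate 3 to −2.52 without wild-type replicate 4.

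The number of genes called over all genes, 5, was 2 with normexp, 3 with probes averaged within a gene, and 0 with quantile normalization, with no filter on dim probes and with the filter on all 4 arrays; with arrays left out it ranged from 0 to 167, the last without Jmjd3-/- replicate 9, where the lone Jmjd3-/- array is assumed to vary like the wild-type arrays. Genes near 0 changed sign: Hrg had −0.017 with median scaling, and Kin 0.015, Kif12 −0.030 and Ppp4r4 0.074 with averaged probes. Leaving out arrays gave ranges of −0.27 to 0.27 for Hrg, −0.024 to 0.0032 for Kin, −0.19 to 0.35 for Kif12, −0.27 to 0.41 for Itih5, −0.29 to 0.015 for Tomm40l and −4.59 to 7.45 for Alb. No paired analysis was possible because the genotypes share no replicate number.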
